A study of Mus musculus with 2 samples.

Results

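The integrated stress response was described here through 10 genes: the eIF2alpha kinases Eif2ak1, Eif2ak2, Eif2ak3 and Eif2ak4, the response factors Atf4, Ddit3, Atf3, Trib3 and Nupr1, and the phosphatase subunit gene Ppp1r15a. They were listed by name for their roles, with earlier results of these data known, and each matched 1 of the 43346 Ensembl gene rows and together 39 transcript rows. The samples were 2 libraries of total RNA from MEL cells, a mouse erythroleukemia line that matures toward hemoglobin-making red cell precursors under dimethyl sulfoxide (DMSO). Treatment was 2% DMSO over 5 days. Both libraries, replicate 1 and replicate 2, belong to this 1 group. The labels name them biological replicates yet cite a single biosample record, so any difference between them may be technical. Untreated cells were not analysed here, and no comparison below measures an effect of DMSO.

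In the integrated stress response, a kinase that senses a particular stress phosphorylates the alpha subunit of the translation factor eIF2. This blocks the exchange factor eIF2B and lowers general protein synthesis, while Atf4 mRNA, which carries upstream reading frames in its leader, is translated more. Eif2ak1 encodes HRI, the kinase that heme inhibits and that in red cell precursors matches globin synthesis to the heme supply. Eif2ak2 encodes PKR, a sensor of double-stranded RNA, Eif2ak3 encodes PERK, a sensor of unfolded proteins in the endoplasmic reticulum, and Eif2ak4 encodes GCN2, a sensor of amino acid shortage. The kinases act through phosphorylation, which RNA levels do not measure.

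The libraries held 65109488 and 90856320 estimated counts, in the order replicate 1 and replicate 2 that is kept throughout. They differed by a chi-square of 258 per degree of freedom over genes, so they were not 1 library deposited under both names. Levels are given in TPM (transcript abundance), a value per transcript length with the same total in every library. Nuclear protein-coding genes held 13.2% and 12.7% of that total. The 10 erythroid markers, among them globin genes, Gata1 and Klf1, all reached 1 TPM in both libraries, as did 2 of 12 markers of other cells. Those were the megakaryocyte genes Pf4, at 34.1 and 24.7 TPM, and Itga2b, at 11.1 and 19.1 TPM. The leukocyte gene Ptprc had 1.49 and 0.92 TPM, Lyz2 had 0.13 and 0.11, Mpo was at 9 and 9 counts, and Mcpt8 and Krt18 were at 0 counts in both libraries.

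The windows before the start sites of Eif2ak1, Atf3 and Trib3 are shown because Eif2ak1 led the kinases and Atf3 and Trib3 were among the 3 genes that differed most between the libraries. They are RefSeq windows on GRCm38.p6, written 5′ to 3′ on the gene's strand and ended before the leading transcript, directly before it for Eif2ak1 and Atf3 and 28 bases before it for Trib3. The Eif2ak1 window is chr5:143817542-143817787 on the plus strand, with its CCAAT box in capitals. The Atf3 window is chr1:191183341-191183583 on the minus strand, with capitals on a match to the C/EBP-ATF response element core TGATGNAA, a motif bound by ATF4 with C/EBP partners. The Trib3 window is chr2:152344061-152344310 on the minus strand.
Eif2ak1: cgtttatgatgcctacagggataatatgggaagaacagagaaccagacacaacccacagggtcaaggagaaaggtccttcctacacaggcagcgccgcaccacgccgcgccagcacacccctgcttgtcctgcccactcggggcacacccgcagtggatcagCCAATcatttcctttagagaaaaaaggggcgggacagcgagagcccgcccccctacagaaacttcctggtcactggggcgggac
Atf3: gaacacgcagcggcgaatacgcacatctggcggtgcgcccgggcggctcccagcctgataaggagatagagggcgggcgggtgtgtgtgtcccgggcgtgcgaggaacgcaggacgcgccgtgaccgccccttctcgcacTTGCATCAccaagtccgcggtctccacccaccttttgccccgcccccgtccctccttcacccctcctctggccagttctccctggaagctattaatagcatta
Trib3: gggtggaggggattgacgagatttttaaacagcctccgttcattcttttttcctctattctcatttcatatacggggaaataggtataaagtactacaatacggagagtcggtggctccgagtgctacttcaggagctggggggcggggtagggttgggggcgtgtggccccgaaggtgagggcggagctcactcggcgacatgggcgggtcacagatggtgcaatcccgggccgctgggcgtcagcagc

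Shorter stretches of 30 bases are shown for the motif matches of Nupr1, the third gene that differed most, and Ppp1r15a. The Nupr1 stretch, chr7:126625562-126625591 on the minus strand, lies before the RefSeq start but within the genomic span of the leading GENCODE transcript. That transcript starts 206 bases upstream of the RefSeq start. The Ppp1r15a stretch, chr7:45526269-45526298 on the minus strand, ends at the base before the start, and its capitals mark the cAMP response element TGACGTCA.
Nupr1: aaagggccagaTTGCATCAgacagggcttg
Ppp1r15a: gagaccccgcctctccggTGACGTCAgcac

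On both strands of the 250 bases before the RefSeq start, TGATGNAA matched in Atf3 and Nupr1, in each as TTGCATCA from 110 to 103 bases upstream, and in 3.40% of all 32536 windows. TGACGTCA, a site for ATF and CREB factors, matched in Ppp1r15a, 12 to 5 bases upstream, and in 1.56% of all windows. CCAAT matched in Eif2ak1, Eif2ak3, Atf4 and Ddit3 and in 33.8% of all windows, and Eif2ak3 held 6 matches. Of the GATA motif forms, AGATAA matched in Ppp1r15a and in 9.97% of all windows, and TGATAA in Atf4 and Atf3 and in 7.79%. The ER stress response element, which contains a CCAAT box, matched in none of the 10 and in 0.114% of all windows. Eif2ak2, Eif2ak4 and Trib3 held none of these motifs. The windows of the 10 genes had a GC content of 53.6% to 67.2%, each above the median of 52.4% over all windows. A match is a description of these letters and no evidence of binding.

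Eif2ak1 had the highest level of the 4 kinase genes in both libraries, at 5.61 and 5.89 TPM, or 5.75 ± 0.198 (SD, n = 2), from 4970 and 8790 counts. It lies on chromosome 5 from 143817788 to 143904251 (GRCm38, plus strand; ENSMUSG00000029613). The intervals that the authors' tables give for its TPM, whose level is not given in the sources used here, overlapped between the libraries (5.42 to 5.81 and 5.73 to 6.04). Its 3′ end overlaps Aimp2 on the opposite strand by 1548 bases, with 3136 and 3002 counts for Aimp2. The authors' posterior standard deviation of the Eif2ak1 count was 0 in both libraries, so the counting shared none of its reads with Aimp2. Whether the counting used strand is not given in the sources used here, so the strand of reads in the overlap is not known.

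Eif2ak2, on chromosome 17, followed with 2.93 and 2.62 TPM (2.78 ± 0.219, SD, n = 2) from 2155 and 3593 counts. Eif2ak4, on chromosome 2, had 2.68 and 2.34 TPM (2.51 ± 0.240) from 2761 and 4107 counts. Eif2ak3, on chromosome 6, was lowest with 1.65 and 1.36 TPM (1.51 ± 0.205) from 1676 and 2243 counts. Eif2ak4 and Eif2ak2 overlapped in their library values, whereas both values of Eif2ak3 lay below all values of the other 3 kinases and both values of Eif2ak1 lay above them. None of the 10 genes had a posterior standard deviation above 0 in the authors' gene tables, so their reads were not split with other genes.

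Within each library, Eif2ak1 exceeded every other kinase. Its TPM was 1.92 and 2.25 times that of Eif2ak2 (2.08 ± 0.236, SD, n = 2), with exact 95% counting intervals of 1.82 to 2.02 and 2.16 to 2.33. Against Eif2ak4 the ratio was 2.09 and 2.52 (2.31 ± 0.300), with intervals of 2.00 to 2.20 and 2.43 to 2.62. Against Eif2ak3 it was 3.40 and 4.33 (3.87 ± 0.658), with intervals of 3.21 to 3.59 and 4.13 to 4.53. In the sum of the 4 kinases, 12.9 and 12.2 TPM, Eif2ak1 held 43.6% and 48.2%, and the share of each other kinase was lower in replicate 2. An exact permutation test between kinases over 2 libraries cannot give a p below 0.5, so none was made.

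The lead of Eif2ak1 over Eif2ak3 and Eif2ak4 was wider in replicate 2 on counts as well as on TPM. By Fisher's exact test on the counts of the 2 libraries, with p-values adjusted over the 3 pairs, its log2 ratio between libraries exceeded that of Eif2ak3 by 0.40 (95% interval 0.30 to 0.51, adjusted p = 1.438e-13). It exceeded that of Eif2ak4 by 0.25 (0.16 to 0.34, adjusted p = 1.872e-08). The excess over Eif2ak2, 0.09 (-0.01 to 0.18), did not pass, with an adjusted Fisher exact p of 0.0703. That result depended on the scale, since the tested counts were not divided by effective length. On TPM, the counting intervals of the ratio to Eif2ak2, 1.82 to 2.02 and 2.16 to 2.33, did not overlap. Reads counted with no molecular identifier are not independent molecules, so intervals and tests cover counting error alone, and the tests compare these libraries, not conditions.

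**Figure D1:**
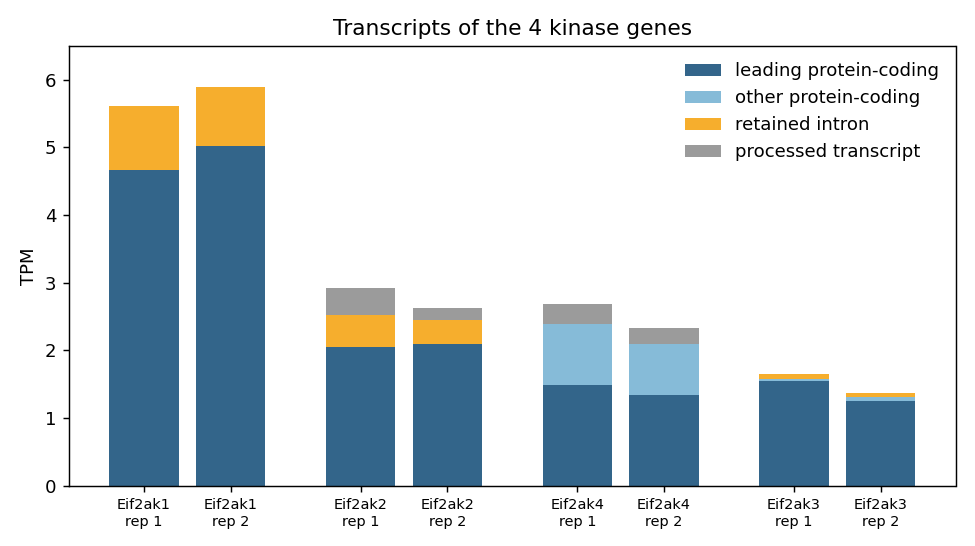
Bars give the TPM (linear axis from 0) of the 4 kinase genes in each library, 1 bar per library, divided by annotated transcript type. Eif2ak1 is the tallest in both libraries, and its leading protein-coding transcript alone, 4.66 and 5.02 TPM, stands above the whole bar of every other kinase.

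The kinase genes differed in how their TPM was divided over transcripts, as the stacked bars of transcript types show. In Eif2ak1 the protein-coding transcript Eif2ak1-201 held 83.1% and 85.3% of the gene's TPM, and the longer of its retained-intron transcripts, ENSMUST00000140013, held 11.4% and 9.43%. Eif2ak2-201, the only protein-coding transcript of its gene, held 70.0% and 80.1%, and Eif2ak2-203, a short processed transcript, 14.0% and 6.53%. Eif2ak3 was nearly all Eif2ak3-201, at 93.6% and 92.4%. Eif2ak4 was the most divided, with Eif2ak4-201 at 55.5% and 57.5%, the protein-coding Eif2ak4-205 at 16.7% and 19.1%, and the processed transcript Eif2ak4-208 at 11.0% and 9.84%. By the authors' posterior mean, Eif2ak4-205 held only 9.46% and 10.8%, so its part is uncertain. By counts, the leading transcript held 94.5% and 95.4% in Eif2ak1, 95.3% and 97.2% in Eif2ak2 and 97.0% and 97.7% in Eif2ak3. In Eif2ak4 it held 65.7% and 66.2% of the counts. The short Eif2ak2-203 drew 1.92% and 0.79% of its gene's counts, and Eif2ak4-208 drew 0.93% and 0.80%. Counted over protein-coding transcripts alone, Eif2ak1 was 2.33 times Eif2ak2, more than 1 SD above the ratio of the whole genes, 3.39 times Eif2ak3 and 2.17 times Eif2ak4, both within 1 SD of theirs.

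Among the response factors, Atf4 was the highest of the 10 genes. Atf4, the bZIP factor that drives amino acid and redox genes, lies on chromosome 15 from 80255184 to 80257541 (plus strand; ENSMUSG00000042406). It had 45.52 and 43.88 TPM (44.7 ± 1.16, SD, n = 2) from 17236 and 27477 counts. Its rank was 332 among 21461 nuclear protein-coding genes, and its level was 8.11 and 7.45 times that of Eif2ak1. With TPM rescaled over nuclear protein-coding genes alone, it had 344.5 and 345.7 TPM. The libraries thus gave nearly the same level on both per-length scales.

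Ddit3 encodes CHOP, the bZIP factor linked to cell death under prolonged stress. It had 21.2 and 24.8 TPM (23.0 ± 2.56, SD, n = 2) from 3703 and 7062 counts, second to Atf4 in both libraries and rank 673 among protein-coding genes. It lies on chromosome 10 from 127290774 to 127296288 (plus strand), where its end overlaps Mars on the opposite strand by 68 bases. The transcript Ddit3-201 held 90.5% and 88.6% of its TPM. Atf4 exceeded Ddit3 by 2.15 and 1.77 times, and the values of the genes did not overlap.

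Ppp1r15a encodes GADD34, the subunit that directs protein phosphatase 1 to eIF2alpha and so ends the response. It had 7.75 and 11.3 TPM (9.54 ± 2.52, SD, n = 2) from 3366 and 7478 counts, and replicate 2 was higher. Ppp1r15a-201 held 73.3% and 66.6% of its TPM, and a 389-base transcript that is not in the later annotation used for names, ENSMUST00000139268, 20.9% and 28.2%. This transcript drew only 2.73% and 3.90% of the gene's counts, since TPM divides by a short length.

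Trib3 lies on chromosome 2 from 152337422 to 152344032, Nupr1 on chromosome 7 from 126623249 to 126630861 and Atf3 on chromosome 1 from 191170296 to 191218039, all on the minus strand. Trib3, a pseudokinase that restrains ATF4 and CHOP, had 3.84 and 8.29 TPM (6.07 ± 3.15, SD, n = 2) from 1687 and 6071 counts. Nupr1, a small stress-induced chromatin protein, had 0.81 and 3.18 TPM (2.00 ± 1.68) from 138 and 853 counts. Atf3, a bZIP repressor induced by many stresses, had 0.38 and 1.04 TPM (0.71 ± 0.467) from 168 and 760 counts. In all 3 the library of replicate 2 was the high one, and the authors' TPM intervals did not overlap between the libraries. Trib3-201 held 96.5% and 97.4% and Nupr1-201 87.9% and 87.6% of their genes' TPM, and every count of Atf3 was on Atf3-201 (87.3% and 96.1% of TPM by posterior mean). With Atf4-201 the single transcript of its gene, the leading transcript was the same in both libraries in 10 of 10 genes and was protein-coding in each.

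**Figure D2:**
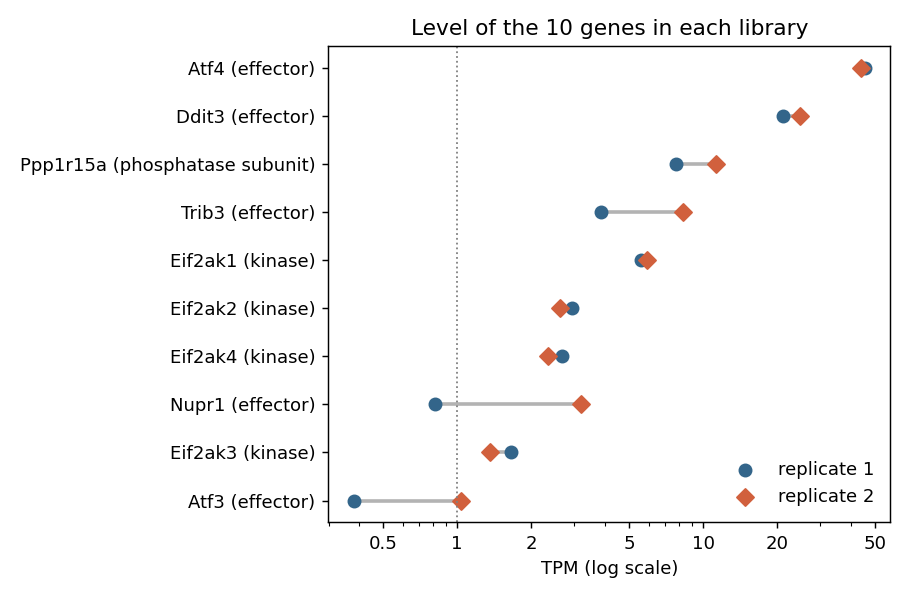
Points give the TPM (log axis) of each of the 10 genes in replicate 1 (circles) and replicate 2 (diamonds), joined by a grey line and ordered by mean level, with a dotted line at 1 TPM. Atf4 and Ddit3 stand above the rest, and Nupr1, Atf3 and Trib3 have the widest gaps between the libraries.

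Ordered by mean TPM, the genes ran Atf4, Ddit3, Ppp1r15a, Trib3, Eif2ak1, Eif2ak2, Eif2ak4, Nupr1, Eif2ak3 and Atf3. Library values overlapped between 5 pairs of neighbours: Ppp1r15a and Trib3, Trib3 and Eif2ak1, Eif2ak2 and Eif2ak4, Eif2ak4 and Nupr1, and Nupr1 and Eif2ak3. The other 4 pairs were separated in both libraries. In both libraries 8 of the 10 genes reached 1 TPM, as did 7990 of 21461 nuclear protein-coding genes, and Atf3 and Nupr1 did not because of replicate 1. The count depended on the cutoff, with 9 genes at 0.5 TPM, 7 at 2 TPM and 10 at 1 FPKM. With TPM rescaled over nuclear protein-coding genes, Atf3 had 2.88 and 8.19 and Nupr1 6.13 and 25.05.

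The genes were then compared between the libraries on counts scaled by TMM, a factor that evens out library size and composition. A gene was called different at an adjusted p under 0.05 by an exact two-sided binomial test over 15272 genes and at a difference of 2-fold or more. Of the 10 genes, 3 were higher in replicate 2 by this rule, against 2.42% of all genes tested and 2.21% of the protein-coding genes among them. By the same rule 0 were lower, against 4.08% and 2.65%. Over all genes tested the rule called 369 higher and 623 lower, and 290 and 820 when protein-coding counts set the scaling, with the same 3 of the 10 genes called. Nupr1 was 4.51-fold higher (log2 ratio 2.17, 95% interval 1.92 to 2.45, adjusted exact p = 5.999e-82). Atf3 was 3.31-fold higher (1.72, 1.49 to 1.98, adjusted exact p = 2.763e-54), and Trib3 was 2.63-fold higher (1.40, 1.32 to 1.48, adjusted exact p = 2.017e-315). The tests cover counting error only, and the spread that edgeR estimated between the libraries was a biological coefficient of variation of 0.216 over all genes tested, with 0.358 for Nupr1, 0.319 for Atf3 and 0.247 for Trib3.

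**Figure D3:**
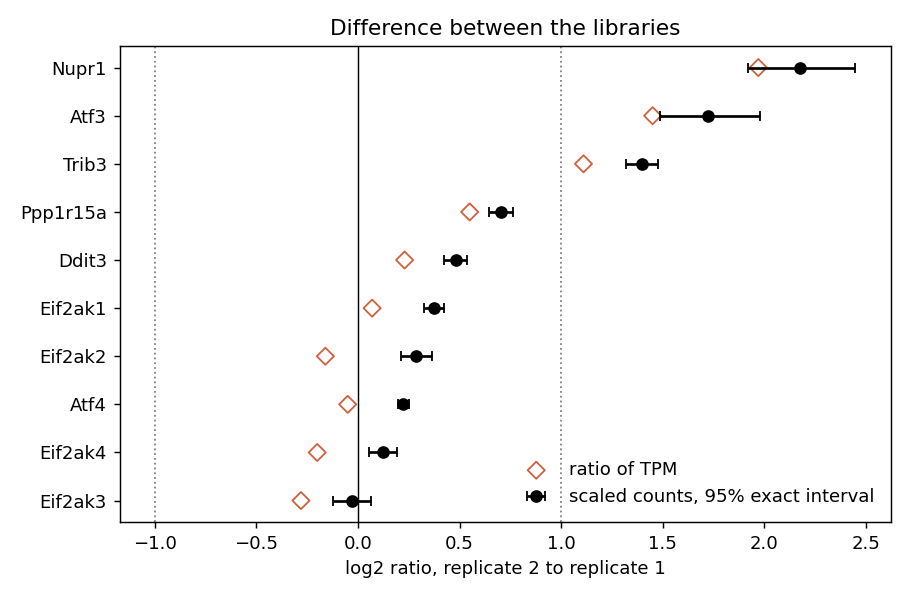
Filled points give the log2 ratio of TMM-scaled counts, replicate 2 to replicate 1, with exact 95% counting intervals, and open diamonds the log2 ratio of TPM, for the 10 genes in order of the count ratio. Dotted lines mark 2-fold, and only Nupr1, Atf3 and Trib3 lie beyond it on either scale.

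Ppp1r15a, at 1.63-fold (log2 0.70, 0.64 to 0.76), and Ddit3, at 1.40-fold (0.48, 0.42 to 0.54), lay short of the 2-fold rule, as did the kinases and Atf4. At 1.5-fold Ppp1r15a passed as well, as did 6.35% of all genes tested in this direction. Among the kinases the log2 ratio was 0.37 for Eif2ak1, 0.29 for Eif2ak2, 0.12 for Eif2ak4 and -0.03 for Eif2ak3, and for Atf4 it was 0.22. With the adjusted p alone, 9 of the 10 genes were higher in replicate 2, as were 31.5% of all genes tested, and 0 were lower, against 30.5%. The exception was Eif2ak3, with an adjusted exact p of 0.603. The median log2 ratio of the 10 genes was 0.43, beside -0.01 over all genes tested, and 0.15 on TPM, where 6 were higher and 4 lower.

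The scale mattered for the small ratios. Over the 7990 protein-coding genes that reached 1 TPM in both libraries, the median log2 ratio was 0.04 on TMM-scaled counts and -0.26 on TPM. Scaling to protein-coding counts moved the median of all genes tested from -0.01 to -0.11. By the ratio of TPM, Eif2ak2 (-0.16), Eif2ak4 (-0.20) and Atf4 (-0.05) were lower in replicate 2, opposite to their count ratios. Eif2ak1 (0.07), Ddit3 (0.23), Ppp1r15a (0.55), Trib3 (1.11), Atf3 (1.45) and Nupr1 (1.97) were higher on both scales. Eif2ak3 was at -0.28 by TPM, and at 0.001 on counts when genes with a minimum of 1 count set the scaling. Of the kinases and Atf4, Eif2ak1 alone kept its sign under every scaling tried.

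The libraries also differed in other ways along with these genes. Replicate 2 had more counts, and genes of the rRNA locus took 7.40% and 2.71% of the counts. Of the 10 erythroid markers, 6 were higher in replicate 2 by the 2-fold rule and 0 were lower, beside 2.42% and 4.08% of all genes tested. The median log2 ratio of these markers was 1.24. Their summed TPM was 6575 and 13724, and that of the 12 markers of other cells was 46.9 and 44.9. Among the 6 past the 2-fold rule were the globin genes Hba-a1, Hba-a2, Hbb-bs and Hbb-bt and the heme synthesis gene Alas2 (63.3 and 176 TPM, log2 1.78). The posterior standard deviation of the count was 530 and 829 for both Hba-a1 and Hba-a2. It was 188 and 345 for both Hbb-bs and Hbb-bt. Reads were thus split within each pair, and the globin calls are not separate measurements. Of the markers of other cells, Itga2b was higher by the 2-fold rule (log2 1.12) and 0 of the 5 tested were lower. With the adjusted p alone 1 was higher and 3 were lower, beside 31.5% and 30.5% of all genes tested. The other megakaryocyte gene, Pf4, was on the lower side (log2 -0.20, adjusted exact p = 1.988e-09). The part of these differences in the ratios of the 10 genes was not tested, and fewer cells of a type and less RNA per cell cannot be told apart in bulk RNA.

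Genes around the kinases were described by lists, and changes in them are differences between the libraries. The 9 subunit genes of eIF2 and eIF2B had a median of 11.7 and 8.77 TPM, beside 4.83 and 3.98 over the protein-coding genes that reached 1 TPM in both libraries, with Eif2s3x at 17.7 and 14.4 TPM, Eif2b2 at 18.1 and 13.6, Eif2s3y at 11.7 and 10.5, Eif2b4 at 13.2 and 8.37 and the lowest, Eif2b3, at 6.53 and 3.71. Eif2s1, which encodes the phosphorylated alpha subunit and was singled out for that role after its values were seen, had 8.83 and 7.28 TPM, above each kinase gene. None of the 9 passed the 2-fold rule. With the adjusted p alone 2 were higher and 5 lower, those 5 being every eIF2B subunit. Of all genes tested, 31.5% were higher and 30.5% lower by this measure. The median log2 ratio of the 9 was -0.13 on counts and -0.41 on TPM.

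Of the 4 phosphatase partners, the catalytic subunit genes Ppp1ca (65.3 and 63.7 TPM), Ppp1cc (40.0 and 32.1) and Ppp1cb (9.30 and 9.65) and the constitutive eIF2alpha-directing subunit gene Ppp1r15b (16.2 and 21.2) had a median of 28.1 and 26.6 TPM. Ppp1r15b was 2.09 and 1.87 times its stress-induced relative Ppp1r15a on the TPM scale. None passed the 2-fold rule. With the adjusted p alone 3 were higher in replicate 2 and 0 lower, beside 31.5% and 30.5% of all genes tested. Ppp1r15b had a log2 ratio of 0.60 on counts (0.576 to 0.625) and 0.38 on TPM. The median log2 ratio was 0.30 on counts and 0.01 on TPM, where 2 were higher and 2 lower.

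The 11 kinase partners and regulators were led by the chaperone genes Hspa8 (497 and 206 TPM), Hsp90ab1 (146 and 86.5), Hsp90aa1 (88.0 and 52.8) and the co-chaperone gene Cdc37 (46.8 and 31.5), and the lowest was the mitochondrial protease gene Oma1 (2.01 and 1.61). The median of the list was 17.3 and 11.6 TPM. Chaperones of the HSP90 and HSC70 families bind HRI. Hspa8 alone passed the 2-fold rule, being lower in replicate 2 (log2 -1.05, -1.07 to -1.04), and the list's median log2 ratio was -0.11 on counts and -0.34 on TPM. With the adjusted p alone, 3 of the 11 were higher and 6 were lower, beside 31.5% and 30.5% of all genes tested. By the 2-fold rule, 4.08% of all genes tested were lower.

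The 8 bZIP partners of ATF4 had a median of 3.13 and 2.70 TPM, with Junb at 10.5 and 13.2 TPM, Atf5 at 6.63 and 6.16, Jund at 3.43 and 3.70 and Nfe2l2 at 3.77 and 3.01. Jun had 3 and 0 counts, at or under the 3 counts that an observed 0 allows, which is 0.0461 and 0.0330 CPM (counts scaled to library size). Of the 7 tested, 0 passed the 2-fold rule. By the adjusted p alone 5 were higher and 0 lower, beside 31.5% and 30.5% of all genes tested. The median log2 ratio was 0.22 on counts and -0.11 on TPM, where 3 were higher and 4 lower.

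Among 30 known targets of ATF4 and CHOP, a list that shares Atf5 and Cebpg with the bZIP partners, 24 reached 1 TPM in both libraries, and the median of all 30 was 5.92 and 5.48 TPM. The asparagine synthetase gene Asns was highest at 71.7 and 95.5 TPM, before the serine pathway gene Psat1 (30.1 and 36.6), the translation repressor gene Eif4ebp1 (27.6 and 25.8) and the mitochondrial serine hydroxymethyltransferase gene Shmt2 (26.2 and 23.4). Fgf21 and Vldlr each had 0 and 1 counts. Of 28 targets tested, 4 were higher in replicate 2 by the 2-fold rule and 0 were lower, beside 2.42% and 4.08% of all genes tested. With the adjusted p alone 21 were higher and 6 lower, beside 31.5% and 30.5% of all genes tested. The median log2 ratio was 0.38 on counts and 0.095 on TPM, where 16 were higher and 12 lower.

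The 4 targets past the rule were Chac1, Slc7a11, Slc6a9 and Gdf15. Chac1, which degrades glutathione, had 1.11 and 3.11 TPM (log2 count ratio 1.76, 1.61 to 1.92). Slc7a11, a cystine transporter gene, had 0.32 and 0.82 TPM (1.65, 1.52 to 1.77). Slc6a9, which encodes a glycine transporter used by heme-making cells, had 5.20 and 9.21 TPM (1.28, 1.22 to 1.34), and Gdf15, a secreted stress factor, had 0.06 and 0.13 TPM from 19 and 64 counts (1.28, 0.55 to 2.12). Replicate 2 was the higher library in each, as in Trib3, Nupr1 and Atf3.

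The 14 genes of the other arms of the unfolded protein response, those of IRE1 and ATF6, were mostly lower in replicate 2. The chaperone genes Hspa5 (112 and 55.8 TPM), Calr (61.8 and 24.6) and Hsp90b1 (40.3 and 22.8) and the disulfide isomerase gene Pdia6 (34.8 and 16.4) led them, and Dnajb9 was lowest at 0.40 and 0.31, and the median was 12.7 and 7.20 TPM. Calr alone passed the 2-fold rule, lower in replicate 2 with a log2 count ratio of -1.08 (-1.11 to -1.05), beside 4.08% of all genes tested. With the adjusted p alone, 10 were lower and 2, Atf6 and Edem1, were higher, both named after their values were seen. Of all genes tested, 30.5% were lower and 31.5% higher by the adjusted p alone. The median log2 ratio was -0.58 on counts and -0.86 on TPM, beside 0.43 and 0.15 for the 10 genes. The difference between the lists was not tested.

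**Figure D4:**
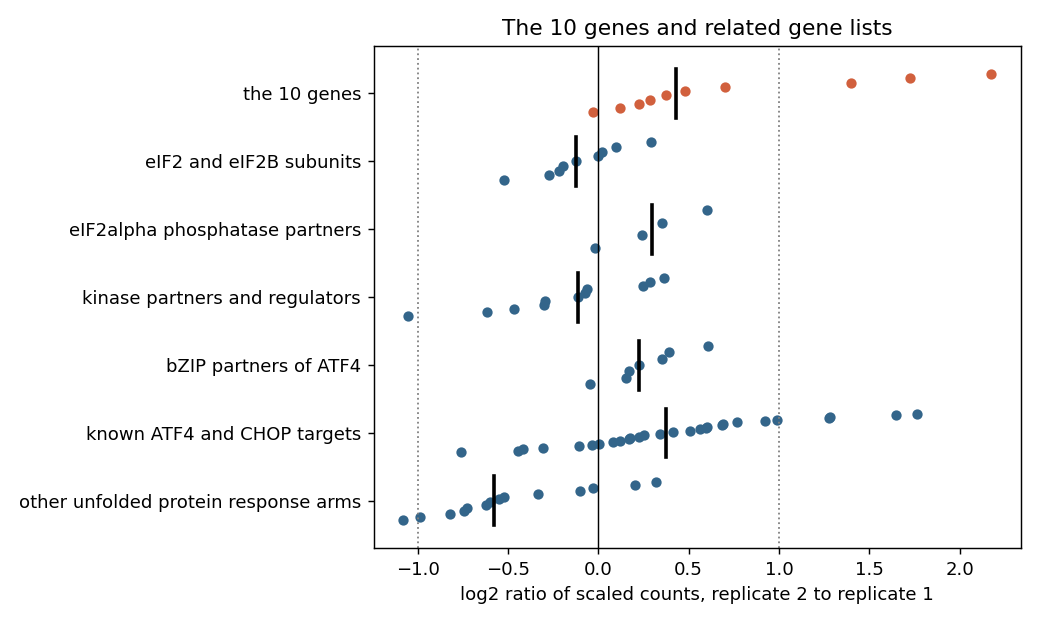
Each point is a gene's log2 ratio of TMM-scaled counts, replicate 2 to replicate 1, for the 10 genes (top row) and 6 related lists, with a black bar at each list's median and dotted lines at 2-fold. The bars lie at 0.43 for the 10 genes and 0.38 for the known targets, and at -0.58 for the other arms of the unfolded protein response.

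The annotated leaders of the leading transcripts were also read, since upstream ATG codons are part of how Atf4 translation is controlled. Counting every ATG in the leader, whatever its frame, 7 of the 10 genes held at least 1, as did 45% of 7376 leading transcripts of expressed protein-coding genes. Atf4, Eif2ak3 and Ppp1r15a held 3 each, Ddit3 held 2, and Eif2ak2, Atf3 and Nupr1 held 1 each. Eif2ak1, Eif2ak4 and Trib3 held none. The Atf4 leader was the longest of the 10 at 594 bases, beside a median of 149 over the expressed genes, and the share of 45% is not matched for leader length.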

How the data were processed

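Total RNA of MEL cells in 2% DMSO for 5 days was measured in 2 libraries of 1 group. The readmes deposited by the authors name mm10 and GENCODE M4. Aligner, quantifier and strand setting: not given in the sources used here. The authors' gene and transcript tables hold, per the file headers, an estimated count, TPM, FPKM, posterior means, each transcript's percent of its gene's TPM, and, as further deposited signal values, bounds of a TPM interval and a posterior standard deviation of the count. TPM as deposited is relative to every row, small RNAs included. FPKM as deposited by the authors served only as an alternative.

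Names, types and coordinates (1-based) came from GENCODE M21 on GRCm38, matched by gene identifier without version for 42462 of 43346 Ensembl rows. Some M4 transcripts differ slightly from M21. Promoter windows came from RefSeq (GRCm38.p6). All 10 genes matched in both.

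Estimated counts were rounded and scaled by TMM in edgeR 4.0.16 (R 4.3.3). Genes with 10 or more counts in a library were compared between libraries with an exact two-sided binomial test and Benjamini-Hochberg adjustment (Python 3.11.15, scipy 1.17.1), since 1 group leaves no contrast for a quasi-likelihood test. Log2 ratios had 0.5 counts added, and 95% intervals are exact (Clopper-Pearson). The test was tested on simulated data that held counting error alone, which does not cover the wider spread between these libraries. The biological coefficient of variation came from edgeR with the mean as the only term. Named genes are the 10 genes, their transcripts holding 10% or more of the gene's TPM, and of each list the 4 highest, the lowest and all that passed the rule, except that some list members are not reported here singly. The genes and lists were chosen with earlier results of these data known. The motifs, the leader counts, the Fisher tests between kinases, protein-coding scaling and ratios of TPM were added after values were seen. DESeq2 1.42.0 size factors were another alternative.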

Additional observations from a re-analysis of the deposited data

How the results depend on the processing

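Nupr1, Atf3 and Trib3, and no other of the 10 genes, passed the 2-fold rule with TMM, DESeq2 size factors, total counts or protein-coding counts as the scaling, with minimums of 1 or 50 counts, and with posterior mean counts. Without a fold threshold 9 of the 10 genes were higher in replicate 2 and 0 lower, beside 31.5% and 30.5% of all genes tested. At 1.5-fold Ppp1r15a passed too, as did 6.35% of all genes tested in this direction. The log2 ratio changed sign by the ratio of TPM for Eif2ak2 (-0.16), Eif2ak4 (-0.20) and Atf4 (-0.05), and for Eif2ak3 with a minimum of 1 count (0.001, from -0.03). The ratio of Eif2ak1 to Eif2ak2 was 2.33 over protein-coding transcripts only. Leaving out each replicate in turn, the ratio of Eif2ak1 ranged from 1.92 to 2.25 to Eif2ak2, from 3.40 to 4.33 to Eif2ak3 and from 2.09 to 2.52 to Eif2ak4, and from 6 to 7 of the 10 genes kept their place in the order of levels. No paired analysis was possible because the labels give 1 group. Depth limits Gdf15, Jun, Fgf21 and Vldlr, and 2 libraries of 1 group allow no test between conditions.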
